A study of Mus musculus with 28 samples.

Results

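The genes described here are the 6 protein-coding neighbours of Gria1 that lie within 1 Mb of a site where pieces of a neural enhancer were inserted: Nmur2, Fam114a2, Mfap3, Galnt10, Sap30l and Hand1. They were chosen by position, as the listed genes of chromosome 11 inside that range, and are 6 of the 7 protein-coding genes there, the other being Gria1 itself, and 6 of 1609 on the chromosome. Contacts of the insertion site were measured by 4C-seq, which counts the restriction fragments ligated to a chosen fragment, the viewpoint. Each gene was measured over its annotated span with 5 kb on each side (its window), as a share of local reads, which are the reads within 1 Mb of the viewpoint with 10 kb on each side left out.

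The 4 libraries came from mouse embryonic stem cells (ESC) of the line E14Tg2a. In the TFBS, CGI and TFBS+CGI libraries the cells carried a knock-in, inside the domain of Gria1, of the transcription factor binding sites (TFBS) of the poised enhancer of Sox1 (PE Sox1), of its CpG island (CGI), or of both, and the WT cells carried none. The cell type label names 2i and LIF, whereas the growth protocol describes serum with LIF. The sources used here do not say whether the lines were single clones or how many alleles carried the insert. There was 1 library per genotype, so no test between genotypes was possible, no p-value is given, and every difference below is a difference between libraries. 4C-seq carries no expression markers, so the labelled cell type could not be checked against any.

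Poised enhancers serve developmental genes and are silent in ESC. Polycomb complexes occupy the CpG islands beside them, and the enhancers can touch their target promoters before the gene is switched on. The series asks what such an island adds when the enhancer is placed beside another gene. The neighbours of Gria1 are bystanders of unlike kinds: a neuropeptide receptor gene (Nmur2), a gene of a microfibril-associated protein (Mfap3), a gene of an enzyme that starts mucin-type O-glycosylation (Galnt10), a gene of a Sin3 histone deacetylase subunit (Sap30l), a basic helix-loop-helix transcription factor gene of heart and placenta (Hand1), and Fam114a2. Contact frequency in 4C-seq generally falls with distance, and far from the viewpoint few ligations are sampled, so that single fragments can carry much of a value after PCR.

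The viewpoint was the fragment on chromosome 11 from 56910361 to 56910414 (mm10) in all 4 libraries. The libraries held 2313468 to 7615835 reads each. The viewpoint fragment itself took 75.5% to 96.5% of them. Local reads were 130345 on 1238 fragments in TFBS, 51943 on 544 in CGI, 417180 on 864 in TFBS+CGI and 101121 on 720 in WT. Beyond 500 kb, where all 6 genes lie, the shares of local reads were 16.4% (TFBS), 10.5% (CGI), 20.6% (TFBS+CGI) and 17.3% (WT). Within 50 kb of Sox1, the locus the insert was copied from, there were 717 reads in TFBS, 0 in CGI, 3 in the library labelled TFBS+CGI and 22 in WT. Since the libraries labelled CGI and TFBS+CGI both had fewer such reads than WT, the genotype names below are those of the labels and were not checked further.

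Fragments of these genes recurred between libraries. Of 10 fragments in the windows with at least 500 reads in TFBS+CGI, all 10 also had reads in CGI, at 1.17% to 2.27% of the TFBS+CGI count (median 1.62%), and all 10 had reads in TFBS (median 0.288%). Outside chromosome 11, the 200 tallest fragments of TFBS+CGI recurred in CGI at a median of 1.56% and in TFBS at 0.266% of their reads. The 200 tallest of TFBS all recurred in WT, at a median of 2.94%, the highest rate of any pair. In all windows together, 384 of 473 CGI reads (81.2%) lay on fragments that had at least 10 times as many reads in TFBS+CGI, against 90 of 1496 TFBS reads (6.02%) and 3 of 2388 WT reads (0.126%). Here and below, 10 times taller is by raw reads. TFBS+CGI was the deepest, with 417180 local reads against 51943 in CGI, 130345 in TFBS and 101121 in WT. By depth alone the rule was easiest to meet for CGI, so these percentages are not on a common scale. Whether reads passed from one library to another was not tested. The overlap with TFBS+CGI touches every CGI value below, and that with TFBS touches WT, the base of most ratios. With the reads estimated from the recurrence outside chromosome 11 subtracted, the summed log2 ratio of CGI over WT, given below as -1.37, was -2.88. Those of TFBS and TFBS+CGI over WT, given below as -1.04 and 1.24, were -1.12 and 1.21.

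**Figure D1:**
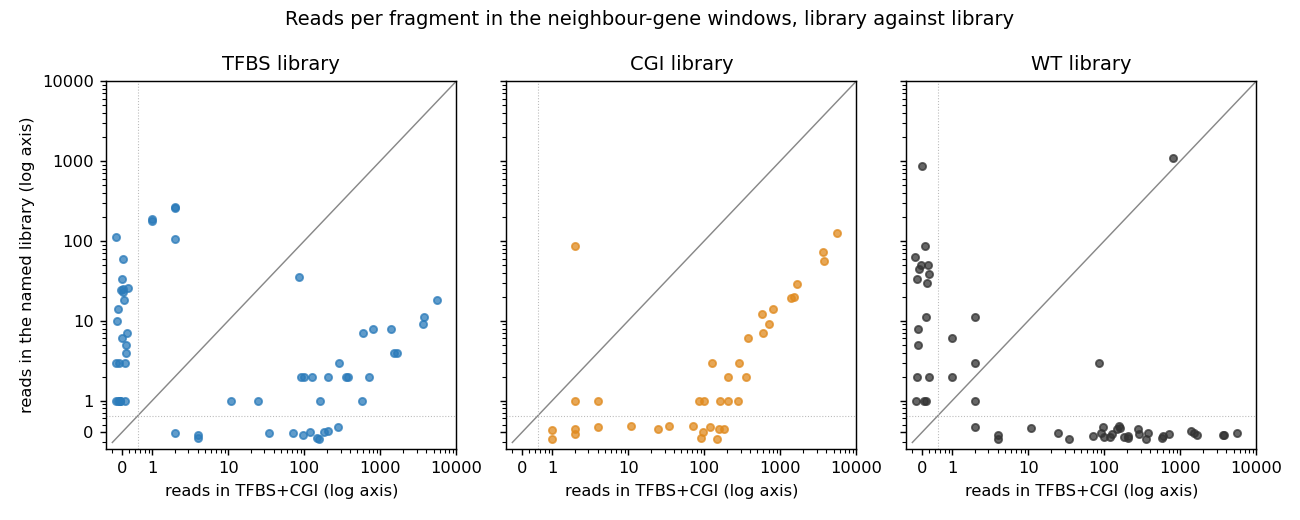
Reads on each fragment of the neighbour-gene windows in the TFBS, CGI and WT libraries (vertical axes, log) against reads on the same fragment in TFBS+CGI (horizontal axis, log), with 0 drawn left of or below the dotted lines and equality as the grey line. In CGI nearly all points form a band far below the line, with the 10 tallest at 1.17% to 2.27% of TFBS+CGI, whereas most tall TFBS and WT fragments stand at or near 0 in TFBS+CGI.

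The genes lay on both sides of the viewpoint. Nmur2 (chromosome 11 from 56024990 to 56040987) was the only member on the left, 869 kb away. On the right, beyond Gria1, lay Fam114a2 (57482990 to 57518656) at 573 kb, Mfap3 (57518652 to 57533817) at 608 kb, Galnt10 (57645442 to 57787514) at 735 kb, Sap30l (57801637 to 57810615) at 891 kb and Hand1 (57828713 to 57832147) at 918 kb. The annotated spans of Fam114a2 and Mfap3 overlap only at their ends, and their windows share fragments because of the 5 kb added on each side. The Nmur2 span lies inside that of the lncRNA LOC115485826, and the Galnt10 span overlaps 3 lncRNAs and a small nuclear RNA gene (4933424L21Rik, Gm51896, Gm46282 and Gm24582), so a read there belongs to these genes as much as to the member. All windows together covered 271 kb, 13.7% of the range.

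Promoter sequences (250 bases before to 50 after the start) were at hand for 4 of the 6 genes, from RefSeq on GRCm38.p6, and matched by symbol. They differ in CpG content, the feature the study concerns: 6 CG dinucleotides in Nmur2, 28 in Galnt10, 31 in Mfap3 and 33 in Sap30l, where the median of 32851 promoters is 7. A promoter has at least as many as Nmur2 in 56.4% of cases, Galnt10 in 14.2%, Mfap3 in 10.6% and Sap30l in 8.56%. The lowest, the one with most reads near its start and the highest are shown with each CG, which reads alike on both strands, in capitals.
Nmur2 (chr11:56040938-56041237, minus strand): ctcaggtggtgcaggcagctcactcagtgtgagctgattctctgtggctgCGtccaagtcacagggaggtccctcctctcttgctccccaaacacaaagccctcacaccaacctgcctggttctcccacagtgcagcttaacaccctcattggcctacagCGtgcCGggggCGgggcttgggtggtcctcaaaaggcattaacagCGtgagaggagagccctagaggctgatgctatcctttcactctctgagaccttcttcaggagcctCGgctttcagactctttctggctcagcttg
Mfap3 (chr11:57518415-57518714, plus strand): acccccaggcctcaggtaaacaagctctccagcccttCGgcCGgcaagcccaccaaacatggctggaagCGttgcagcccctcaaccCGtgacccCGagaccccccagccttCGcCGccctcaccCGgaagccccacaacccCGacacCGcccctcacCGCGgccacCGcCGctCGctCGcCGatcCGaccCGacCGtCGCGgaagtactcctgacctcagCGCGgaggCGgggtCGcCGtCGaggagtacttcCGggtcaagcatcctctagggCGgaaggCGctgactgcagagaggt
Sap30l (chr11:57801387-57801686, plus strand): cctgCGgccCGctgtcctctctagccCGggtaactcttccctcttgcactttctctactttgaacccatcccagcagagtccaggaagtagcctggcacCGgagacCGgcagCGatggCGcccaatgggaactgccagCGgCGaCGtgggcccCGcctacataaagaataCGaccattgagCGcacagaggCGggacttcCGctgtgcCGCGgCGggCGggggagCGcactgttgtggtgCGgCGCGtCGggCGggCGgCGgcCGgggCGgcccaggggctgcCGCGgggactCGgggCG

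CpG content and reads at the start did not go together in these 4 genes. Within 5 kb of the Sap30l start, the most CpG-rich, there was no read in any library, and the nearest fragment with reads began 10.4 kb away. Within 5 kb of the Galnt10 start there were 0 reads in the 3 insert libraries and 38 in WT. The Mfap3 start had 10 reads in TFBS, 72 in CGI (all on a fragment with 3643 reads in TFBS+CGI), 3654 in TFBS+CGI and 0 in WT, and the CpG-poor Nmur2 start had 292, 1, 355 and 4 in the same libraries. The NlaIII site CATG and the DpnII site GATC, between which fragments are cut, each occur in the Mfap3 promoter (1 time each) and in neither the Nmur2, Galnt10 nor Sap30l promoter, while 61.1% and 48.0% of all promoters hold them. Both sites read alike on both strands.

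Together the 6 windows held 1.15% of local reads in TFBS (95% interval 1.09% to 1.21%), 0.911% in CGI (0.832% to 0.996%), 5.58% in TFBS+CGI (5.51% to 5.65%) and 2.36% in WT (2.27% to 2.46%). These shares rest on 1496, 473, 23280 and 2388 reads from 49, 23, 38 and 24 fragments. TFBS+CGI was thus highest and CGI lowest, and the 4 intervals, which cover counting error only, do not overlap. Set against WT, TFBS was at a log2 ratio of -1.04, CGI at -1.37 and TFBS+CGI at 1.24. Spans without flanks brought TFBS+CGI to 0.19, and leaving out the tallest fragment of each window brought TFBS to 0.15 and CGI to -0.047. Without the fragments common to the Fam114a2 and Mfap3 windows TFBS+CGI was at 0.99, just under 2-fold. The sign for TFBS also depended on the scale: as deposited, in RPM (reads scaled to the library total), it was 1.04. Going to that scale moves every log2 ratio over WT by 2.08 (TFBS), -0.71 (CGI) or 2.04 (TFBS+CGI). In each library the 5 tallest fragments carried most of the reads, 66.6% in TFBS, 78.0% in CGI, 69.1% in TFBS+CGI and 89.4% in WT. Counted as fragments, the members held 3.96% of local fragments in TFBS, 4.23% in CGI, 4.40% in TFBS+CGI and 3.33% in WT, and no ratio over WT on that measure had an interval that left out 0.

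**Figure D2:**
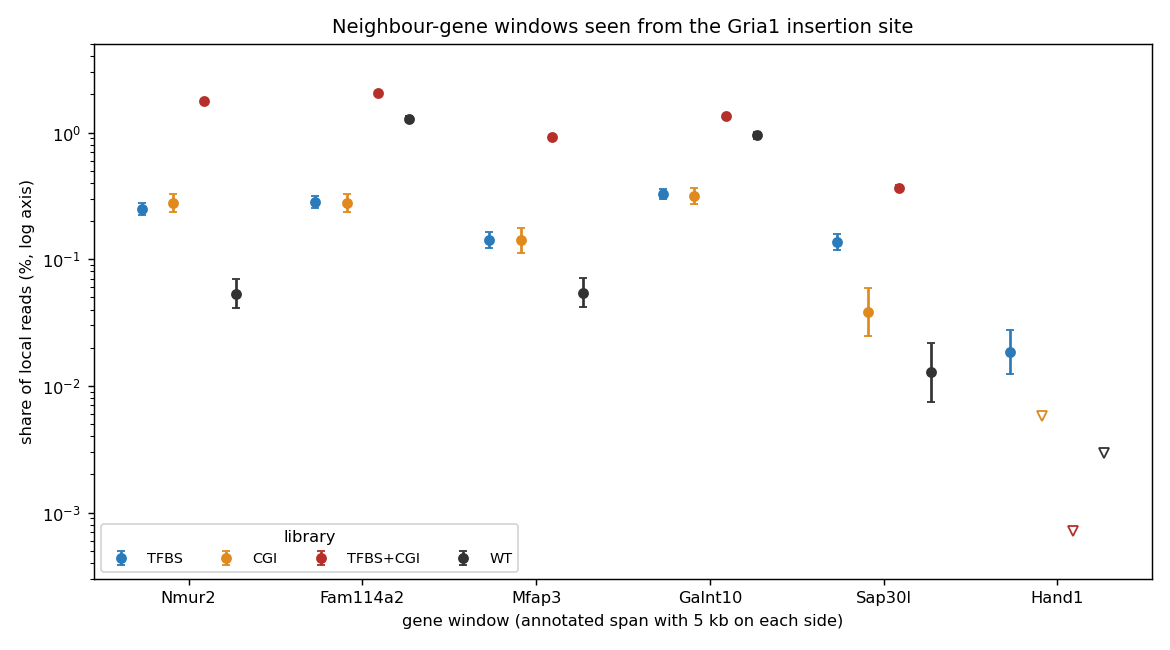
Share of local reads (vertical axis, percent, log) in the window of each neighbour gene in the TFBS, CGI, TFBS+CGI and WT libraries, with 95% Wilson intervals that cover counting error only. Open triangles mark the limit that 0 reads allows. TFBS+CGI is highest at every gene but Hand1, where only TFBS had reads.

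Nmur2, the receptor gene for neuromedin U and neuromedin S, had 322 reads in TFBS, 144 in CGI, 7372 in TFBS+CGI and 54 in WT, on 8, 6, 9 and 3 fragments. These were 0.247% (0.222% to 0.275%), 0.277% (0.236% to 0.326%), 1.77% (1.73% to 1.81%) and 0.0534% (0.0409% to 0.0697%) of local reads. All insert libraries lay above WT, with log2 ratios of 2.21 for TFBS, 2.38 for CGI and 5.05 for TFBS+CGI. The fragments behind them were not the same. In TFBS, 264 reads (82.0%) lay on the fragment from 56039869 to 56039995, just inside the promoter end of the gene, where CGI had 0, TFBS+CGI 2 and WT 3. In WT, 50 reads (92.6%) lay on the fragment from 56028541 to 56028839, which had 0 reads in the other 3 libraries. In TFBS+CGI, 5509 reads (74.7%) and in CGI, 125 (86.8%) lay on the fragment from 56020331 to 56020441, 4.60 kb outside the annotated span. Of the 144 CGI reads, 143 lay on fragments at least 10 times taller in TFBS+CGI. Within the span alone the counts were 271, 8, 674 and 53, and the log2 ratios over WT were then 1.99 for TFBS, -1.77 for CGI and 1.62 for TFBS+CGI.

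Fam114a2 had 369 reads in TFBS, 144 in CGI, 8586 in TFBS+CGI and 1304 in WT, on 12, 4, 7 and 7 fragments. Its shares were 0.283%, 0.277%, 2.06% and 1.29%, the highest WT share of the 6 genes. TFBS stood at a log2 ratio of -2.19 (-2.36 to -2.02) to WT, CGI at -2.22 (-2.48 to -1.97) and TFBS+CGI at 0.67 (0.59 to 0.76). The WT value turned on the fragment from 57490174 to 57490531, with 8 reads in TFBS, 14 in CGI, 800 in TFBS+CGI and 1074 in WT (82.4% of its reads there). It was the only fragment of the windows with at least 500 reads in more than 1 library. Most TFBS+CGI reads were elsewhere, 3771 on the fragment from 57481626 to 57481684 outside the span and 3643 on the fragment from 57520217 to 57520752 inside Mfap3. Within the annotated span TFBS+CGI had 814 reads against 1304 in WT, a log2 ratio of -2.72, so the higher TFBS+CGI value came from the flanks. All 144 CGI reads lay on fragments at least 10 times taller in TFBS+CGI.

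Mfap3, whose product is linked to elastic microfibrils, had 186 reads in TFBS, 73 in CGI, 3834 in TFBS+CGI and 55 in WT, on 7, 2, 4 and 3 fragments. The shares were 0.143%, 0.141%, 0.919% and 0.0544%, and the log2 ratios over WT 1.39 (0.95 to 1.85), 1.37 (0.84 to 1.90) and 4.08 (3.70 to 4.49). The fragment from 57520217 to 57520752, 1.55 kb past the start whose promoter is printed above, carried 3643 of the TFBS+CGI reads (95.0%), 72 of the CGI reads (98.6%), 9 of the TFBS reads and no WT read. It also lies in the Fam114a2 window. Without the fragments common to both windows Mfap3 had 176 reads in TFBS, 1 in CGI, 180 in TFBS+CGI and 55 in WT. Its log2 ratio over WT was then 1.31 for TFBS but -0.33 for TFBS+CGI, and Fam114a2 was at -0.13 in TFBS+CGI. The fragment from 57520217 to 57520752 lies inside the Mfap3 span, so this also takes out reads of the gene itself. Within the span alone Mfap3 was at 4.24 for TFBS, 5.57 for CGI and 8.27 for TFBS+CGI, against only 3 WT reads.

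Galnt10, which encodes a polypeptide N-acetylgalactosaminyltransferase, was the longest member and the one with most fragments. It had 426 reads on 20 fragments in TFBS, 164 on 11 in CGI, 5610 on 18 in TFBS+CGI and 962 on 9 in WT, all inside the annotated span. The shares were 0.327%, 0.316%, 1.34% and 0.951%. TFBS was at a log2 ratio of -1.54 (-1.71 to -1.38) to WT, CGI at -1.59 (-1.84 to -1.35) and TFBS+CGI at 0.50 (0.40 to 0.60). On the deposited scale the TFBS ratio was 0.54. The fragment from 57700542 to 57700671 had 5 reads in TFBS, 0 in CGI and TFBS+CGI, and 863 in WT, where they made 89.7% of the value. With the tallest fragment of each window left out, the ratios were 0.39 for TFBS, 0.60 for CGI and 3.28 for TFBS+CGI. The tallest fragment carried 60.8% in TFBS and 29.2% in TFBS+CGI, where 16 fragments were taller than in any other library. The CGI library had its own tallest fragment here, from 57658486 to 57658970, with 87 reads against 2 in TFBS+CGI and 0 in TFBS and WT. Of the 68 fragments in the windows it was the only 1 with most reads in CGI, and 76 of the other CGI reads lay on fragments at least 10 times taller in TFBS+CGI.

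Sap30l, a gene of the Sin3 repressor machinery, had 179 reads in TFBS, 20 in CGI, 1532 in TFBS+CGI and 13 in WT, on 2, 1, 2 and 2 fragments. The shares were 0.137%, 0.0385%, 0.367% and 0.0129%, and the log2 ratios over WT were 3.42 (2.61 to 4.35), 1.58 (0.50 to 2.71) and 4.84 (4.06 to 5.75). None of these reads lay inside the annotated span in any library. TFBS had 175 of its reads on the fragment from 57812072 to 57812316, TFBS+CGI 1531 and CGI all 20 on the fragment from 57812776 to 57812919, and WT 11 on the fragment from 57814889 to 57815629, so 3 fragments past the end of the gene made the values. A taller WT fragment lay just outside the window, from 57820227 to 57820347, with 2 reads in TFBS, 2 in CGI, 0 in TFBS+CGI and 1191 in WT (1.18% of WT local reads). With 10 kb on each side, which takes it in, Sap30l was at a log2 ratio of -3.07 to WT for TFBS, -4.81 for CGI and -1.70 for TFBS+CGI.

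Hand1, which encodes a transcription factor of the developing heart and trophoblast, had 24 reads on 2 fragments in TFBS and 0 in CGI, TFBS+CGI and WT. The TFBS share was 0.0184% (0.0124% to 0.0274%), and a count of 0 allows up to 0.00578% in CGI, 0.000719% in TFBS+CGI and 0.00297% in WT. Taking the 24 reads as counted, the TFBS share was 6.21-fold the share that the WT limit of 3 reads allows. On the log2 scale that is 2.63. The exact interval, taken from 24 against 0 reads and not from the limit of 3, starts at 2.22 and has no upper end. Both fragments, from 57834315 to 57834806 with 14 reads and from 57835234 to 57835875 with 10, lay past the annotated span, in that of the lncRNA Gm32915. The tall WT fragment described for Sap30l lies 8.43 kb from Hand1, and with 10 kb on each side the log2 ratio of TFBS over WT was -5.68. Contact with the Hand1 span itself was not detectable at this depth in any library.

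**Figure D3:**
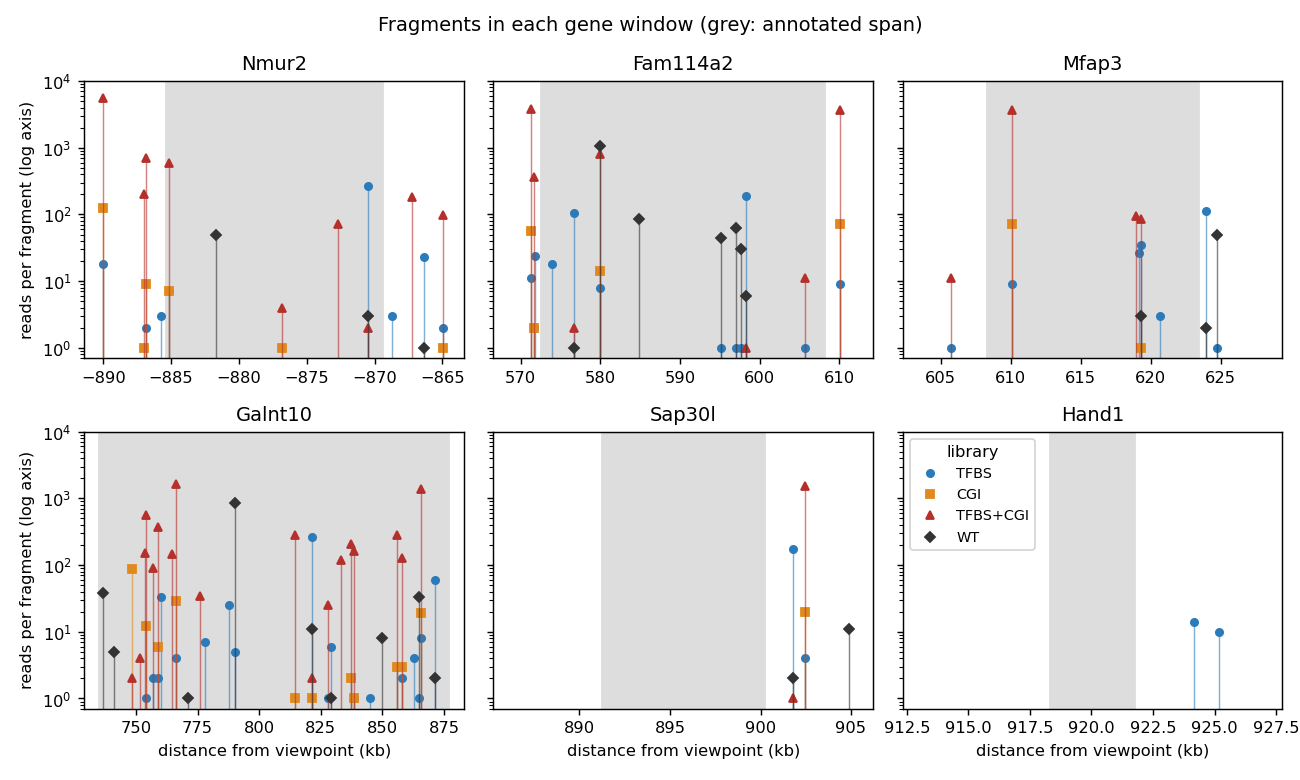
Reads per fragment (vertical axis, log) against distance from the viewpoint in kb (negative to the left) in the window of each gene, for TFBS (circles), CGI (squares), TFBS+CGI (triangles) and WT (diamonds); grey marks the annotated span. Tall fragments of the different libraries stand at different places, and the Sap30l and Hand1 spans are empty.

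Past a 2-fold difference from WT with an exact interval that left out 0, TFBS had 4 genes higher (Nmur2, Mfap3, Sap30l and Hand1) and 2 lower (Fam114a2 and Galnt10) of 6. CGI had 3 higher and 2 lower of 5 with a value, and TFBS+CGI 3 higher and 0 lower of 5. With the recurring reads subtracted CGI had 0 higher and 2 lower, and without the tallest fragment of each window 1 higher and 0 lower, so the CGI split and its median below rest on those fragments. The same rule called 49.2% of 10-kb windows in the range higher and 29.1% lower in TFBS, 25.5% and 51.5% in CGI, and 42.6% and 31.2% in TFBS+CGI. Among genes of chromosome 11 with more than 3 reads in either library it called 56.4% higher and 33.6% lower in TFBS, 33.9% and 51.9% in CGI, and 44.3% and 48.9% in TFBS+CGI. These were 241, 183 and 221 of the 1609 genes, and nearly all lie beyond 1 Mb. Their reads were also divided by local reads, so their ratios vary with how each library splits between near and far reads. On the deposited scale the members split into 4 higher and 0 lower in TFBS, 1 and 2 in CGI, and 5 and 0 in TFBS+CGI. The background shares were not counted on that scale, which moves all ratios of a library over WT alike, so this split has no share to stand beside. With local reads as the base, calls of this size were common wherever the libraries were compared, and with 5 or 6 genes the counts are not told apart from that background. The median log2 ratio of the members was 1.80 for TFBS, 1.37 for CGI and 4.08 for TFBS+CGI, beside medians of 1.02, -1.54 and 0.52 over the 10-kb windows. The TFBS+CGI median is the Mfap3 value, and the fragment from 57520217 to 57520752 held 95.0% of those reads. Without the fragments common to the Fam114a2 and Mfap3 windows, Mfap3 was at -0.33 and Fam114a2 at -0.13. Galnt10 stayed at 0.50, Sap30l at 4.84 and Nmur2 at 5.05, so the TFBS+CGI median was not stable. These windows are shorter than the gene windows, and all ratios share the WT library.

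TFBS+CGI over TFBS does not use the WT library. By the same rule 5 members were higher and Hand1, on 24 reads, lower, while the rule called 37.2% of 10-kb windows in each direction, and 35.5% of chromosome 11 genes higher and 56% lower. The gene percentages are again of those with more than 3 reads in either library (248), with reads divided by local reads. The log2 ratios were 2.84 for Nmur2, 2.86 for Fam114a2, 2.69 for Mfap3, 2.04 for Galnt10 and 1.42 for Sap30l, and Gria1 between them was at 0.08. For 4 of the 5 the direction depended on which fragments were counted. Within the spans alone Nmur2 was at -0.36 and Fam114a2 at -0.34, Mfap3 was at 4.03, and Sap30l had no read. Without the fragments common to both windows Mfap3 was at -1.65. Without the tallest fragment of each window Mfap3 was at -0.33 and Sap30l at -3.68, the last on 1 read in TFBS+CGI and 4 in TFBS. Galnt10 had a positive ratio under every alternative run, down to 0.37 when fragments were counted. TFBS+CGI had 417180 local reads on 864 fragments, against 130345 on 1238 in TFBS.

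Per 10 kb of window, Nmur2 stood highest of the members in TFBS (0.0950%), CGI (0.107%) and TFBS+CGI (0.680%), and Fam114a2 in WT (0.282%). This order holds for windows with 5 kb on each side. Per 10 kb of the span alone Mfap3 stood highest in CGI (0.0927%) and TFBS+CGI (0.604%), where Nmur2 had 0.00963% and 0.101%, while Nmur2 in TFBS (0.130%) and Fam114a2 in WT (0.362%) remained first. Nmur2, at 869 kb, lies farther from the viewpoint than Fam114a2, at 573 kb. In TFBS the next members were Sap30l at 0.0724%, Fam114a2 at 0.0620%, Mfap3 at 0.0567%, Galnt10 at 0.0215% and Hand1 at 0.0137%. In WT Galnt10 followed at 0.0626%, then Mfap3 at 0.0216%, Nmur2 at 0.0205% and Sap30l at 0.00677%, and the counting intervals of Mfap3 and Nmur2 overlap. The mean over all sequence beyond 500 kb was 0.164% in TFBS, 0.105% in CGI, 0.206% in TFBS+CGI and 0.173% in WT. With 5 kb on each side Nmur2, Fam114a2 and Mfap3 exceeded it in TFBS+CGI, Fam114a2 in WT and no member in TFBS. Per 10 kb of the span alone only Mfap3 exceeded it in TFBS+CGI, where Nmur2 had 0.101% and Fam114a2 0.0547%. That Mfap3 value lay mostly on the fragment from 57520217 to 57520752, which the Fam114a2 window shares. Nmur2 in CGI, with 5 kb on each side, differed from the mean beyond 500 kb by less than its counting error, and was at 0.0334% with the recurring reads subtracted. Gria1, nearer to the viewpoint at 101 kb, had 0.652% per 10 kb in TFBS, 1.03% in CGI, 0.687% in TFBS+CGI and 0.490% in WT. Against a window of equal length at the same distance on the other side of the viewpoint, 3 of 6 members had more reads in TFBS, 1 in CGI, 1 in TFBS+CGI and 3 in WT. The opposite window of Nmur2 overlaps the windows of Galnt10 and Sap30l, and theirs overlap that of Nmur2. These counts therefore partly set members against each other.

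**Figure D4:**
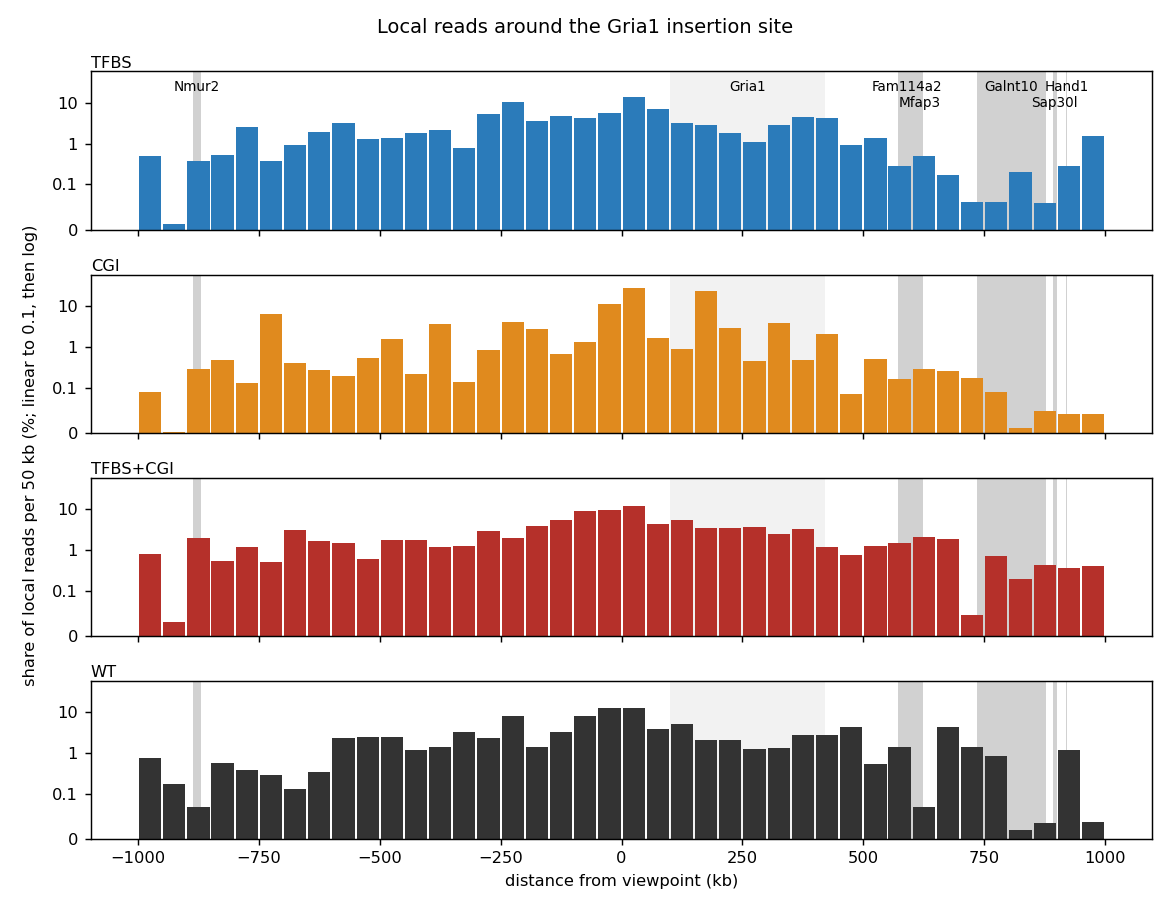
Share of local reads in 50-kb steps (vertical axis, percent, linear to 0.1 and then log) against distance from the viewpoint in kb for the TFBS, CGI, TFBS+CGI and WT libraries, with 10 kb on each side of the viewpoint left out. Dark grey bands mark the 6 neighbour genes and light grey Gria1. Beyond 500 kb, where the dark bands lie, the steps are uneven in every library and sum to 16.4% (TFBS), 10.5% (CGI), 20.6% (TFBS+CGI) and 17.3% (WT).

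The windows held 68 different fragments with reads in at least 1 library. Only 3 were read in all 4 libraries and 28 in a single library. TFBS+CGI had most reads on 31 of them, TFBS on 22, WT on 14 and CGI on 1. These ranks and the 10-fold rule below use raw reads, not adjusted for depth. Local reads ran from 51943 in CGI to 417180 in TFBS+CGI, so depth alone favours TFBS+CGI over CGI. On 64 of 68 the tallest library had at least 10 times the reads of the next, and among the 40 fragments that reached 50 reads this held for 38. The exceptions were the Fam114a2 fragment with 800 reads in TFBS+CGI and 1074 in WT, and the Mfap3 fragment from 57529615 to 57529847 with 85 in TFBS+CGI and 35 in TFBS. Local fragments as a whole were alike at these distances: of 236 that reached 50 reads between 500 and 1000 kb, 95.3% were so dominated, and between 10 and 100 kb 73.7% of 293. The share of fragments read in all 4 libraries was 4.80% between 500 and 1000 kb and 14.4% between 10 and 100 kb. Reads on a fragment were counted after PCR without molecular identifiers, so the number of ligations behind a tall fragment is unknown.

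**Figure D5:**
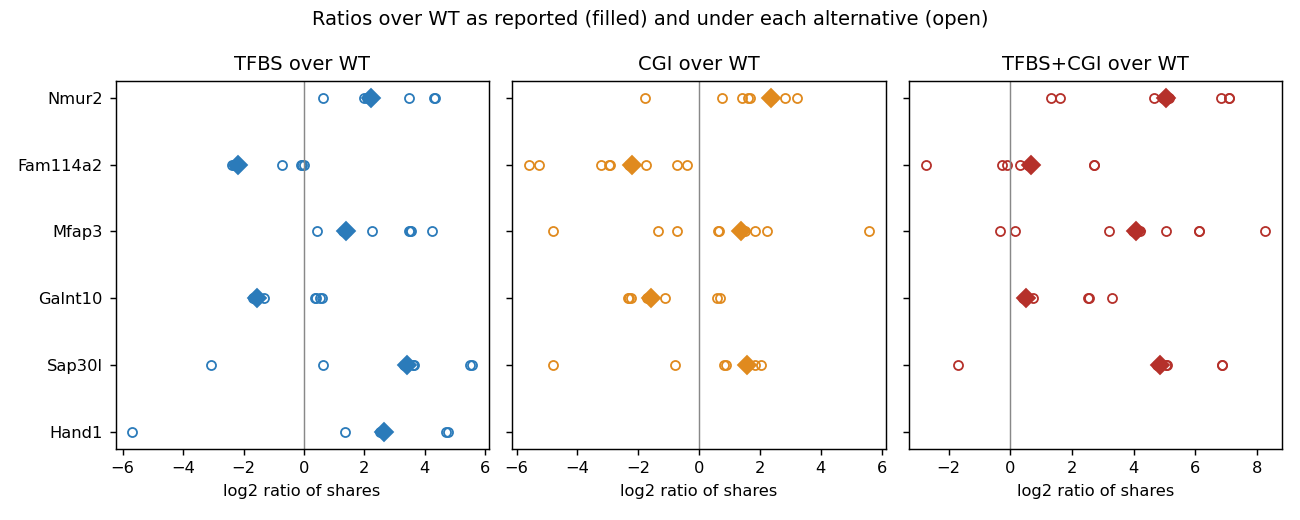
Log2 ratio of the share of local reads over WT (horizontal axes) for each neighbour gene in TFBS, CGI and TFBS+CGI, as reported (filled diamonds) and under each alternative processing (open circles), with values against 0 reads drawn at the limit of 3 reads. All values lie above 0 for Nmur2 and Mfap3 in TFBS and for Nmur2 and Galnt10 in TFBS+CGI. All lie below 0 for Fam114a2 in TFBS and CGI. Every other ratio drawn has values on both sides of 0.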

How the data were processed

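The 4C-seq libraries were digested with NlaIII and then DpnII and amplified by inverse PCR, per the labels' protocols. The deposited values are RPM per restriction fragment on mm10, which the authors made after alignment with HISAT2, per the submitters' processing notes; the version is not given there. Dividing each library by its smallest value gave whole reads for 100% of fragments (tolerance 0.1), and these reads were used here. Gene spans and promoters came from RefSeq tables on GRCm38.p6, the same assembly. A fragment counted for a gene when its midpoint lay within the span with 5 kb on each side, and as inside the span by the same midpoint rule. Shares have 95% Wilson intervals and log2 ratios exact conditional binomial intervals, which cover counting error only, since PCR reads without molecular identifiers are not independent molecules. A library with 0 reads was set to 3 reads. A gene or window was called past 2-fold when the interval also left out 0. With 1 library per genotype no count model was run. The members, lists and rules were chosen with earlier results of these data known. All members are named. Alternatives changed the scale, the distance left out, the flank, and the treatment of tall, low, shared and recurring fragments. The interval code was tested on simulated data. Of the 28 samples, 4 libraries were used for the comparisons and 9 of other viewpoints for the closing section. Python 3.11.15, numpy 2.4.6, pandas 2.3.3, scipy 1.17.1 and matplotlib 3.10.9 were used.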

Additional observations from a re-analysis of the deposited data

Results flagged for a closer look

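The viewpoints of the series near Gata6, Six2 and Six3 gave 9 libraries and 54 values for the 6 genes, 47 of them 0. Reads above the limit of 3 that a count of 0 allows appeared in 4 values. Galnt10 had 65 reads on 4 fragments in the WT library of the Six2 promoter. Fam114a2 had 12 reads on 1 fragment in the TFBS+CGI library of the Gata6 promoter in AntNPC cells. Nmur2 had 6 reads on 1 fragment in the Six2 promoter library of cells with the deletion labelled del36. Nmur2 also had 4 reads on 1 fragment in the CGI library of the Gata6 promoter in AntNPC cells.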

How the results depend on the processing

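The reported summed log2 ratios over WT were -1.04 (TFBS), -1.37 (CGI) and 1.24 (TFBS+CGI), with 6, 5 and 3 genes past 2-fold. On the deposited RPM scale they were 1.04, -2.08 and 3.28, with 3 genes in CGI and 5 in TFBS+CGI, and as a share of chromosome 11 reads 1.09, -2.13 and 3.26, with 3 and 5 again. Galnt10 in TFBS was then at 0.54 and 0.59. Background shares were not counted on these scales. Leaving out 25 kb around the viewpoint gave -1.15 in TFBS and 1.14 in TFBS+CGI. Spans without flanks gave -1.45, -2.20 and 0.19, with Nmur2 in CGI at -1.77 and no value for Sap30l and Hand1. Mfap3 was then at 4.24, 5.57 and 8.27, against 3 WT reads. Spans with 10 kb on each side gave -1.58, -1.77 and 0.89, with Sap30l at -3.07, -4.81 and -1.70 and Hand1 in TFBS at -5.68, since they take in the tall WT fragment. Without the tallest fragment of each span the sums were 0.15, -0.047 and 2.36, with 3 genes past 2-fold in TFBS and 1 in CGI, Galnt10 at 0.39 in TFBS and 0.60 in CGI, and Mfap3 at -1.36 in CGI. Capping fragments at the 99th percentile gave -0.92 in CGI and 1.09 in TFBS+CGI. Counting fragments gave 0.25, 0.34 and 0.40, with 0 genes past 2-fold in each library, and Galnt10 at 0.37 in TFBS and 0.69 in CGI. Subtracting the reads estimated from recurrence outside chromosome 11 gave -2.88 in CGI with 2 genes past 2-fold, Mfap3 at -0.72 and Sap30l at -0.80. The Sap30l value is a limit, since its CGI share was then 0 and was set to 3 reads. Leaving out the fragments common to the Fam114a2 and Mfap3 windows, an alternative chosen after seeing the data, gave -1.61 in CGI and 0.99 in TFBS+CGI, with Mfap3 at -4.82 in CGI, on 1 read, and -0.33 in TFBS+CGI. Only fragments with at least 10 reads left all 19 log2 ratios over WT inside their reported intervals. For TFBS+CGI over TFBS, also added after seeing the data, 5 genes were over 2-fold higher as reported, 2 within spans without flanks (Nmur2 -0.36, Fam114a2 -0.34), 3 without the tallest fragments (Mfap3 -0.33, Sap30l -3.68) and 0 when fragments were counted (Fam114a2 -0.26, Mfap3 -0.29); Mfap3 was at -1.65 without the common fragments. Where no cause is named, the cause was not tested.

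No paired analysis was possible because each genotype had 1 library. Intervals cover counting error only, and the spread between cultures is unknown.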
